A study of Mus musculus with 36 samples.

Results

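Liver RNA of old mice at the time point labelled 96 was compared with liver RNA of old mice sampled before regeneration. The comparison took the 3 libraries titled as old at 96 and the 3 titled as old before, which made 6 of the 36 libraries of the series. All 6 came from C57BL/6JN mice, an inbred laboratory strain, aged 18 months, and the submitters named the old animals as the treated group. The other 30 libraries came from old mice at 48, 72, 120 and 240 and from mice of the same strain aged 4 months at all 6 time points, again with 3 libraries a group. The labels give no unit for the time numbers and do not say how regeneration was induced, so the groups are called before and 96 here. Replicates carry the numbers 1 to 3. The labels do not say that they were separate animals, so the p-values below measure the spread between libraries. That spread was estimated within the groups over all 36 libraries, and how much of it is technical is not known. Sex-linked transcripts, given below, show that each group held RNA of more than 1 animal. Whole frozen liver was extracted, ribosomal RNA was removed and total RNA was sequenced. A lower level in such bulk tissue can come from fewer cells of a type or from less RNA per cell, and these cannot be told apart.

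The adult liver is mostly quiescent. When tissue is lost, hepatocytes leave quiescence, copy their DNA and divide, and the other liver cells follow, while the organ goes on with its metabolic work. The enzymes that turn glucose into fat, the genes of the daily clock and the early growth-factor response are each known to shift during this process. The study asked how this response differs with age, and 96 lies in the middle of the sampled time points.

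Library totals ranged from 4393173 to 4709507 counts before and from 2328233 (replicate 1) to 4426664 at 96. The levels below are CPM, which are counts scaled to a common library total after TMM scaling, and a change is the log2 fold change of 96 against before with its standard error (SE) from edgeR's quasi-likelihood fit. A gene was called at a Benjamini-Hochberg adjusted p under 0.05. Of 13436 genes tested, 920 were called (6.85%), of which 506 were higher at 96 (3.77%) and 414 lower (3.08%). The change was at least 2-fold in 345 of the former and in 214 of the latter, and the median over all genes tested was -0.02. With total-count scaling in place of TMM the split was 659 higher and 285 lower. The 3 libraries at 96 all lay above or all below the 3 before in 3611 of the 13436 genes (26.9%). Lack of overlap was also a condition for naming part of the genes below, so where it is noted it describes their values and is no support for them. The number of calls rested on single libraries. It was 1110 without replicate 1 before, 400 without replicate 2 before, 236 without replicate 3 before, 363 without replicate 1 at 96 and 379 without replicate 2 at 96.

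Some libraries stood apart. In replicate 1 before and replicate 1 at 96, transcripts of the Y chromosome (Uty, Kdm5d, Ddx3y and Eif2s3y) summed to 259.7 and 180.4 CPM, while the other 4 libraries held 0 CPM of them. Xist, the RNA of the inactive X chromosome, was at 1.41 and 2.58 CPM in the same 2 libraries and at 3292 to 4214 CPM in the other 4, so replicate 1 of each group came from another animal than replicates 2 and 3. Each of the 12 groups of the series held 1 such library, and without all 12 the count of calls was 573 (342 higher, 231 lower). Leaving them out also lowers the number of libraries a group. With all 36 libraries kept and a term for Y-linked transcripts in the fit, the count was 1164 (625 higher, 539 lower). All 920 calls of the main fit were among these. Of the genes described below whose call was followed in each alternative, Mki67, Cdk1, Ezh2, Tet3, G6pc, Haao, Sds, Uox, Acaa1b, Hes6, Thrb, Tgfa, Ier5, Col4a1, Robo4, Cd79b and Mlec were not called without those 12 libraries (adjusted p 0.0545 to 0.248, edgeR). Cyp2d22, Gstm2 and Leo1 were not called either (0.284, 0.465 and 0.167). Uhrf1 and Dnmt1 were lost as well, since the 2 risers left in their list were Hells and Suv39h1. Some genes below, such as Clspn, Chaf1a, Gadd45a, Acly, Srebf1, Elovl6, Acss2 and Dynll1, were not followed in this way. Replicate 1 before also listed 20255 genes with a count, against 15073 to 16115 in the other 5, and 3102 of them had no count elsewhere among the 6, with a median of 2 counts each. Replicate 3 at 96 held the lowest level of most mitotic genes among the libraries at 96. The labelled tissue fitted its markers. Albumin (Alb) stood at 10940.3, 8144 and 8593 CPM before and at 9247, 8477 and 9160.2 CPM at 96.

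**Figure D1:**
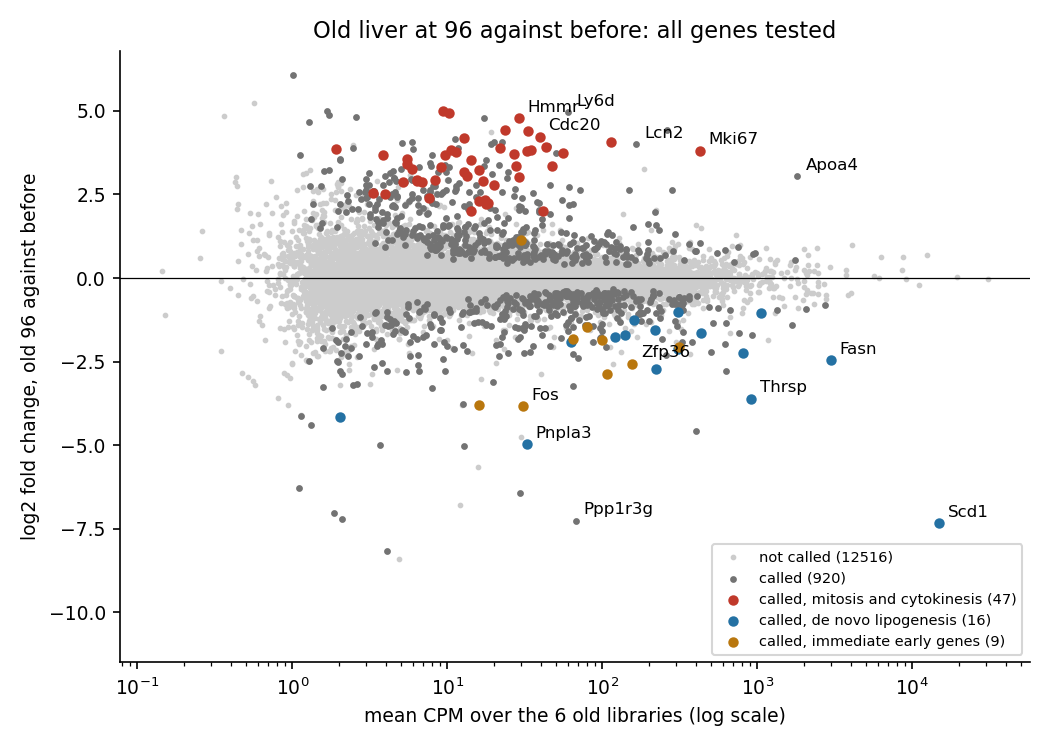
Each point is 1 of the 13436 genes tested, placed by its mean CPM over the 6 old libraries (horizontal, log scale) and its log2 fold change at 96 against before (vertical). Called genes of 3 lists are coloured: the 47 called mitosis genes and Ly6d, Lcn2 and Apoa4 lie above 0, and Scd1 and the other 15 called lipogenesis genes lie below it.

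Genes of the machinery of cell division rose at 96. Many promoters of mitotic genes share a short element near the start of transcription, known as the cell cycle genes homology region (the letters TTTGAA, or in some genes TTTAAA), and boxes of the letters CCAAT upstream of it. In dividing cells these elements are known to carry late cell cycle transcription. The promoters of 4 called genes are shown because the search found both elements in them: Cdc20, an activator of the anaphase-promoting complex, Hmmr, a spindle protein, Cdk1, the mitotic kinase, and Ccnb1, its cyclin B1 partner. Each run holds 250 bases before to 50 after the start of the gene from RefSeq (GRCm38.p6), 5′ to 3′ on the minus strand, with both forms of the element and the CCAAT boxes on either strand in capitals.
Cdc20, chr4:118437294-118437593: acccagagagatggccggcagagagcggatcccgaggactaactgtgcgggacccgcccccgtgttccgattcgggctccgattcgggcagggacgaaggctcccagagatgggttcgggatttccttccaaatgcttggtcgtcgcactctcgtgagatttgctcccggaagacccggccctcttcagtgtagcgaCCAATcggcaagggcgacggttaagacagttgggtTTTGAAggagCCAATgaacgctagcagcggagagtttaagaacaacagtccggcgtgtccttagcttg
Hmmr, chr11:40733388-40733687: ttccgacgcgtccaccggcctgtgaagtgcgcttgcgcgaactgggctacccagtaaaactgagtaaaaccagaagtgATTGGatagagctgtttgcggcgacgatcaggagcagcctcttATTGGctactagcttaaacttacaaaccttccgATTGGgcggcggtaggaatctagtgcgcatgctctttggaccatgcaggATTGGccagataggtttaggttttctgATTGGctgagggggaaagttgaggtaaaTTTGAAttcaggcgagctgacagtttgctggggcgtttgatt
Cdk1, chr10:69352863-69353162: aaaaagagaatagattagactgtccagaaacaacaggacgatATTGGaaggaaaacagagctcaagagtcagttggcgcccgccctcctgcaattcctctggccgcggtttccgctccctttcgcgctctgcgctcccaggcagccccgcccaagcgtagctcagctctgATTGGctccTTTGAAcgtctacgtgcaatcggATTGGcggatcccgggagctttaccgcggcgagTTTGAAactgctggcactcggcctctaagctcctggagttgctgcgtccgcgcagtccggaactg
Ccnb1, chr13:100786437-100786736: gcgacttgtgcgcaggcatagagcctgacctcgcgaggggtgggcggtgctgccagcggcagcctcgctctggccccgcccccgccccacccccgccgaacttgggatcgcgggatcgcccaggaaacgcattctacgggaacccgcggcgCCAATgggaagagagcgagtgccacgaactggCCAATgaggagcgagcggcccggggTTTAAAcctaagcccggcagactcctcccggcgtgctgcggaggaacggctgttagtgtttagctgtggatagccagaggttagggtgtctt
In Cdc20 the element TTTGAA began 18 bases before the start, in Cdk1 15 and 71 bases before it, and in Hmmr at base 9 after it. Ccnb1 held TTTAAA 42 bases before the start. Searched on both strands, TTTGAA occurred in 36 of the 47 mitosis genes with a promoter in the table (76.6%), against 1254 of 10169 promoters of all genes tested (12.3%) and 4893 of all 27025 promoters (18.1%). CCAAT occurred in 36 of the same 47 (76.6%), against 38.7% of the promoters of genes tested. Among all genes called higher at 96, 93 of 382 promoters held TTTGAA (24.3%), and among those called lower 40 of 318 (12.6%). These are counts of letters, not of bound sites.

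Of 57 tested genes of the mitosis and cytokinesis list, 47 rose and 0 fell, with a median log2 fold change of 3.18 over all 57. Ccnb1 had 1.64, 0.223 and 0 CPM in replicates 1, 2 and 3 before (3 counts would be 0.684 CPM in the last) and 32.2, 21.7 and 5.63 CPM at 96. It rose by 4.93 ± 0.97 (adjusted p 0.00303, quasi-likelihood test), and by 7.13 without replicate 1 before. The 7.13 rests on 0.223 and 0 CPM before, both under 3 counts, so its size is uncertain. Hmmr (chr11:40701395-40733422) went from 3.05, 2.68 and 0.228 CPM to 85.0, 69.1 and 13.5 CPM. All 3 libraries at 96 lay above all 3 before in both genes, and replicate 3 was the lowest of its group at both times. Hmmr rose by 4.79 ± 0.91 (adjusted p 0.00246). Mki67 (chr7:135689784-135716361), the antigen that marks cycling cells in histology, had 55.2, 84.2 and 31.3 CPM before and 1031, 1108 and 263 CPM at 96, a rise of 3.81 ± 0.80 (adjusted p 0.00421). Without the libraries that held Y-linked transcripts its adjusted p was 0.0631. Top2a, the topoisomerase that untangles sister chromatids, rose by 3.74 ± 0.78 from 3.42 to 11 CPM before to 36.6 to 139 CPM at 96.

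Further division genes named by the rule, inside or outside this list, act at several steps. Ckap2 and Ckap2l, which bind spindle microtubules, rose by 4.44 ± 0.76 and 4.39 ± 0.88, and Knstrn, a kinetochore adaptor, by 4.08 ± 0.81. Cdca3, which targets the mitotic brake Wee1 for destruction, rose by 4.79 ± 0.90. Kif22, the chromosome-arm kinesin, rose by 3.18 ± 0.51 from 1.37 to 3.99 CPM before to 10.1 to 30.5 CPM at 96. In each, the libraries at 96 lay above those before. Without replicate 1 before, Ckap2 and Cdca3 were at 5.82 and 6.11, and Cdca3 was at 4.18 without replicate 1 at 96. Cdc20 (chr4:118432901-118437352) had 8.92, 2.46 and 0.684 CPM before and 102, 110.4 and 13.8 CPM at 96, a rise of 4.23 ± 0.92 (adjusted p 0.00552). Its value was 5.58 without replicate 1 before, and its adjusted p was 0.0559 without replicate 3 before. Cdk1 had 1.88, 1.12 and 1.37 CPM before and 17.2, 14.9 and 1.97 CPM at 96, so replicate 3 at 96 lay only just above the libraries before. It rose by 2.92 ± 0.74 (adjusted p 0.016), and the call was lost without replicate 2 or 3 before and without replicate 1 or 2 at 96 (0.0771 to 0.0883). The count of risers in the list was 23 without replicate 3 before, and with any other 1 of the 6 libraries left out it lay between 35 and 52. Without the libraries that held Y-linked transcripts it was 34.

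DNA replication genes were called in 1 direction as well. Of 39 tested members, 17 rose and 0 fell, with a median of 1.40. Rrm1 (chr7:102441695-102469771), the large subunit of the enzyme that makes deoxynucleotides, had 13.1, 8.94 and 11 CPM before and 45.5, 41.6 and 27.6 CPM at 96. It rose by 1.79 ± 0.28 (adjusted p 0.000434). Fen1, the nuclease that trims Okazaki fragments, went from 17.1, 7.82 and 7.07 CPM to 45.5, 62.9 and 32.3 CPM and rose by 2.14 ± 0.36 (adjusted p 0.000842). The groups did not overlap in either gene. Chaf1a, a subunit of the chaperone that places histones on new DNA, rose by 2.80 ± 0.54. Mcm2, a subunit of the replicative helicase, had 13.1, 7.15 and 3.42 CPM before and 30.1, 35.8 and 31.5 CPM at 96. It rose by 2.04 ± 0.51 (adjusted p 0.0151), a value of 2.64 without replicate 1 before, and was not called without replicate 2 or 3 before or replicate 2 at 96 (0.0548 to 0.115). Pcna, the sliding clamp, did not pass the test at 0.67 ± 0.28 (adjusted p 0.145), from 28.8 to 31.7 CPM before to 42.5 to 54.6 CPM at 96. The number of risers fell to 7 without replicate 2 before, to 5 without replicate 3 before, to 11 without replicate 1 at 96 and to 7 without replicate 2 at 96. The E2F-like letters TTTCCCGC occurred in 6 of the 32 promoters of this list (18.8%), against 1.97% of the promoters of genes tested.

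Histone genes of the clustered families are switched on in S phase and encode the proteins that package new DNA. Of 54 tested, 23 rose and 0 fell, with a median of 1.6. Hist1h2bl went from 0.939, 1.12 and 0.228 CPM to 10.3, 17.4 and 5.91 CPM, a rise of 3.85 ± 0.80 (adjusted p 0.00421) with no overlap. Close copies of these genes share reads, so single members are uncertain. The count also rested on single libraries. It was 8 without replicate 2 before, 1 without replicate 3 before, 12 without replicate 1 at 96, 1 without replicate 2 at 96, and 2 without the libraries that held Y-linked transcripts.

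DNA repair and checkpoint genes gave 12 risers and 0 fallers among 31 tested, with a median of 1.26. Brca1, which guides repair by homologous recombination, had 16.2, 9.61 and 12.3 CPM before and 50.7, 62.0 and 40.5 CPM at 96. It rose by 2.01 ± 0.31 (adjusted p 0.000434). Every library at 96 lay above every library before. Clspn, an adaptor of the replication checkpoint, rose by 3.44 ± 0.68 from 0.684 to 2.35 CPM before to 11 to 18.0 CPM at 96. The count of risers was 5 without replicate 2 before, 4 without replicate 3 before, 6 without replicate 1 at 96 and 3 without replicate 2 at 96.

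Regulators of the cycle were mixed. Of 27 tested, 8 rose and 0 fell, with a median of 0.56, and the count was 3, 2, 4 and 2 without replicate 2 before, replicate 3 before, replicate 1 at 96 and replicate 2 at 96. Rbl1 (p107), a pocket protein that binds E2F factors, had 3.99, 3.13 and 2.05 CPM before and 12.5, 15.7 and 7.31 CPM at 96, and rose by 1.95 ± 0.39 (adjusted p 0.00321). Foxm1, the transcription factor of the G2 phase, went from 4.46, 2.9 and 1.83 CPM to 29.6, 51.9 and 12.1 CPM, a rise of 3.36 ± 0.73 (adjusted p 0.00536) that was 2.75 without replicate 2 at 96 (0.053) and was not called without replicate 3 before either (0.0534). Neither gene overlapped between the groups. Ccnd1, the cyclin that takes cells into G1, had 139, 291 and 247 CPM before and 449.6, 676 and 792 CPM at 96. Its groups did not overlap, but at 1.5 ± 0.63 it did not pass the test (adjusted p 0.154).

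Brakes on the cycle moved in both directions. Of 27 tested inhibitors of cyclin-dependent kinases and targets of p53, 3 rose and 4 fell. Cdkn2c, the INK4 inhibitor p18, had 9.39, 18.5 and 11.4 CPM before and 56.3, 85.4 and 47.0 CPM at 96, a rise of 2.26 ± 0.40 (adjusted p 0.00139) without overlap. Cdkn1a (chr17:29090976-29100727), which encodes p21, had 9.39, 2.68 and 3.65 CPM before and 91.5, 31.8 and 6.47 CPM at 96. Replicate 3 at 96 thus lay below replicate 1 before. It rose by 3.01 ± 0.70 (adjusted p 0.00831), by 1.90 without replicate 1 at 96 and by 3.75 without replicate 1 before, and was not called without replicate 2 or 3 before or replicate 1 at 96 (0.0587 to 0.134) or with only the groups compared in the fit (0.0981). The fallers were Gadd45a, Gdf15, Btg2 and Plk3, which respond to stress and growth factors. Gadd45a had 65.5, 149 and 138 CPM before and 14.6, 22.7 and 28.7 CPM at 96, and fell by 2.40 ± 0.63 (adjusted p 0.0197). With 1 library left out, the count of risers in this list was 7, 1, 1, 1, 2 and 6 (replicates 1, 2 and 3 before, then 1, 2 and 3 at 96), and that of fallers lay between 0 and 4. There were 0 fallers without replicate 3 before or replicate 2 at 96.

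**Figure D2:**
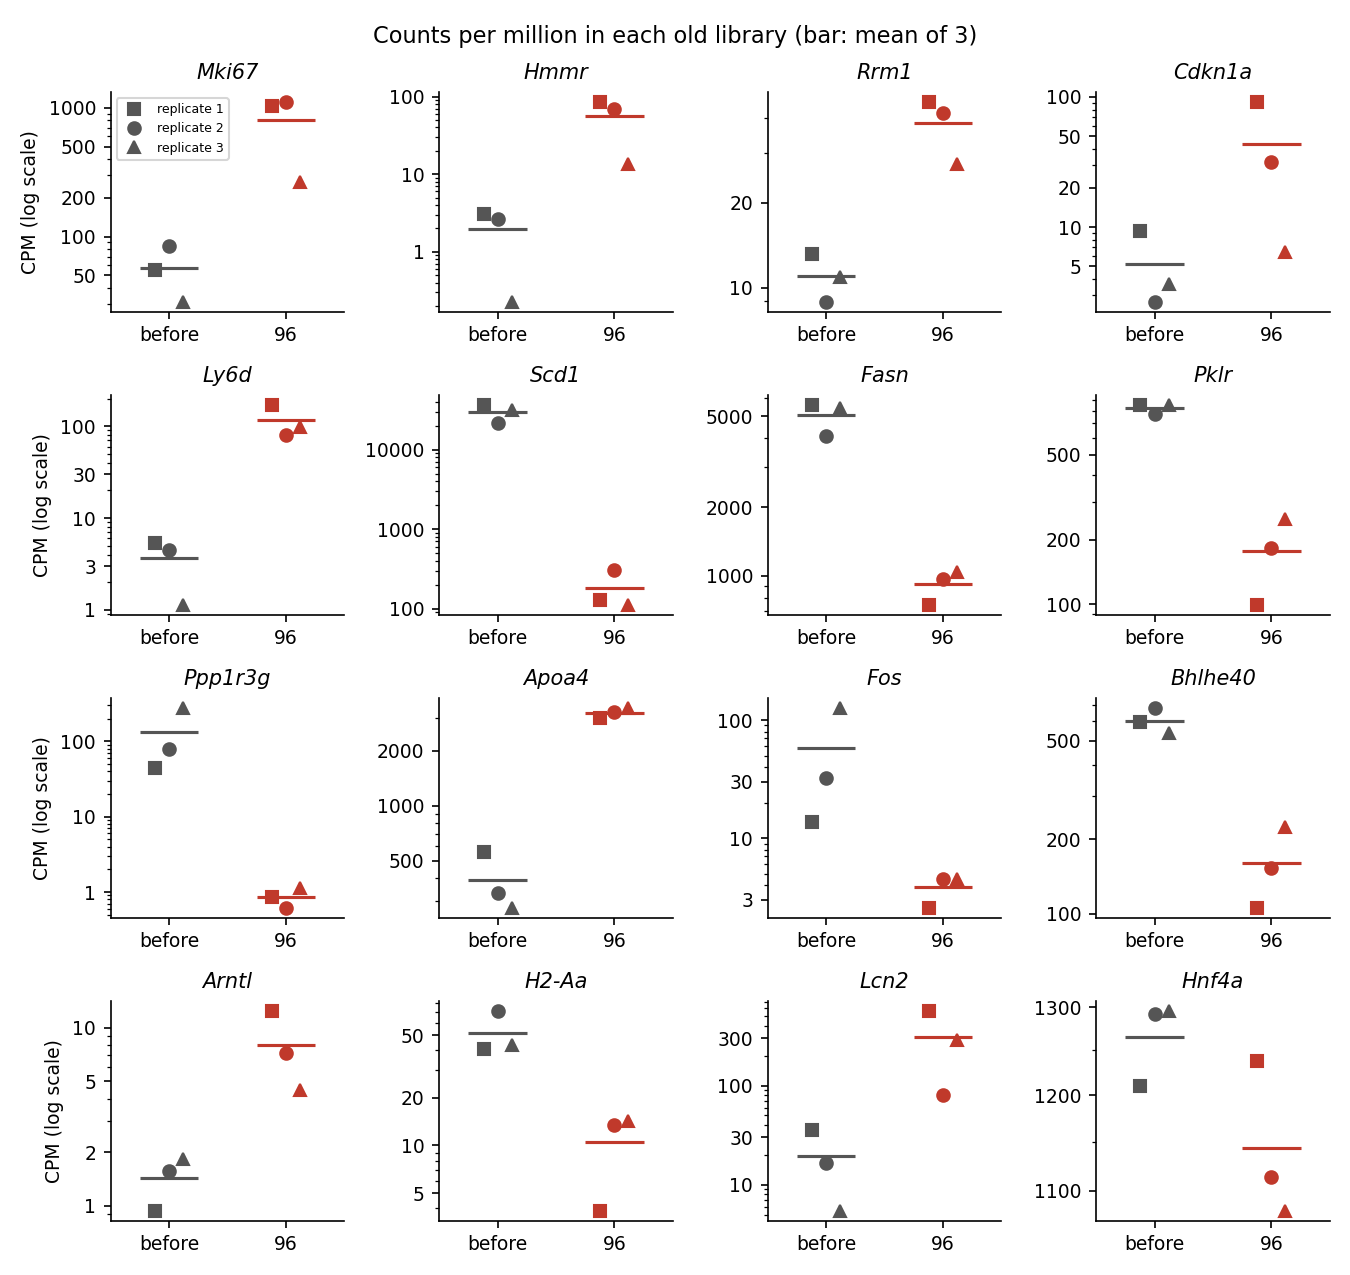
Each panel shows 1 gene in the 6 old libraries, with CPM on a log axis, grey for before and red for 96. Squares, circles and triangles are replicates 1, 2 and 3, and the bar is the mean of 3. The genes were mostly chosen by rules that required groups without overlap or a small p, and over all genes tested 26.9% did not overlap. The groups overlap here in Cdkn1a, where replicate 3 at 96 has 6.47 CPM, and in Hnf4a.

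Chromatin regulators of 2 kinds were in the list of Polycomb repressive complex 2 (PRC2) and DNA methylation. It also held some of neither kind, among them Suv39h1. PRC2 writes the repressive mark H3K27me3, and the methylation maintenance enzymes copy DNA methylation onto new strands. Of 26 tested, 5 rose and 1 fell, with a median of 0.05, close to that of all genes. The risers were Uhrf1, Hells, Suv39h1, Ezh2 and Dnmt1. Hells, a remodelling helicase needed for DNA methylation, had 3.29, 2.23 and 0.913 CPM before and 12.5, 16.7 and 10.4 CPM at 96, and rose by 2.62 ± 0.51 (adjusted p 0.00275). Dnmt1, the maintenance methyltransferase, went from 20.7, 20.3 and 14.8 CPM to 43.8, 38.5 and 31.2 CPM and rose by 1.02 ± 0.25 (adjusted p 0.0125). Neither gene overlapped between the groups. The call of Dnmt1 was lost without replicate 3 before or replicate 1 at 96, where Hells was the 1 riser left. It was also lost without the libraries that held Y-linked transcripts. Ezh2, the catalytic subunit of PRC2, had 6.57, 6.03 and 5.02 CPM before and 14.2, 18.8 and 7.88 CPM at 96. It rose by 1.22 ± 0.35 (adjusted p 0.0327), and was not called without replicate 2 or 3 before or replicate 1 or 2 at 96 (0.0918 to 0.217) or with only the groups compared (0.0877). Tet3, which oxidises methylcytosine, fell by 0.63 ± 0.17 (adjusted p 0.0215), a call that was lost without any 1 of the same 4 libraries (0.0744 to 0.163), with only the groups compared (0.118) and with total-count scaling (0.0665). The list had 1 riser without replicate 3 before or replicate 1 at 96 and 2 without the second replicate of either group. Without the libraries that held Y-linked transcripts it had 2 risers and 0 fallers.

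Tubulins and their partners build the spindle and the cytoskeleton. Of 24 tested, 6 rose and 1 fell, with a median of 0.96. Stmn1 (chr4:134468320-134473843), which destabilises microtubules, had 4.46, 4.47 and 2.28 CPM before and 53.7, 50.7 and 14.3 CPM at 96. It rose by 3.39 ± 0.61 (adjusted p 0.00145). Tubb6, a beta tubulin, went from 23.0, 16.3 and 14.4 CPM to 143, 95.1 and 36.0 CPM and rose by 2.34 ± 0.42. In both genes all libraries at 96 were higher than all before. Tubulin genes are close copies, which makes single members uncertain. Actg1, a cytoplasmic actin, had 21.1, 45.8 and 66.2 CPM before and 22.8, 15.5 and 9.84 CPM at 96, so its groups overlapped. It fell by 1.49 ± 0.43 (adjusted p 0.0331), and was not called without replicate 2 or 3 before or replicate 2 or 3 at 96 (0.0883 to 0.225). The call was also lost with only the groups compared, without the replicate block (0.0996) and with it (0.0777). The risers numbered 3 without replicate 3 before, and with any other 1 library left out 4 to 8.

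**Figure D3:**
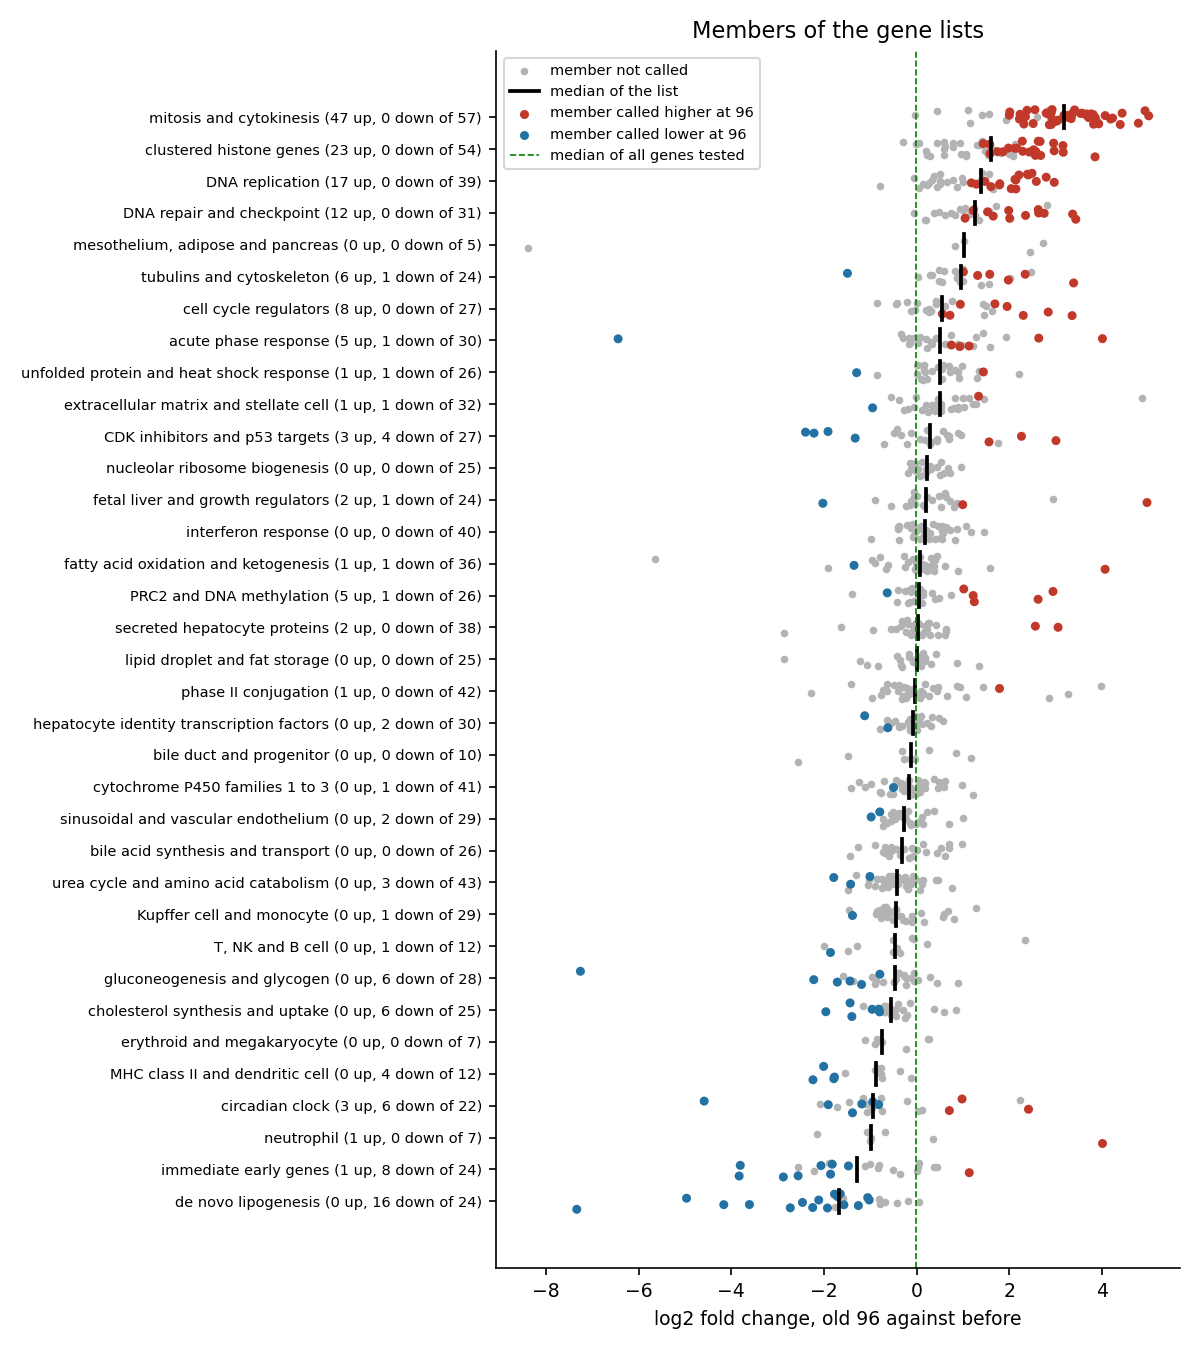
Each row is 1 gene list, and each point a tested member at its log2 fold change at 96 against before (red called higher, blue called lower, grey not called). The black bar is the list's median and the dashed green line the median of all genes tested, -0.02. The top rows are division lists, led by mitosis at 3.18, and the bottom row is de novo lipogenesis at -1.68.

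Most tested genes of de novo lipogenesis fell. Hepatocytes make fatty acids from glucose through citrate, acetyl-CoA and malonyl-CoA, and insulin and sugar are known to drive this path through Srebf1 and Mlxipl (ChREBP). Of 24 tested genes, 16 fell and 0 rose, with a median of -1.68. With 1 library left out, 13 to 16 fell. Scd1 (chr19:44394455-44407879), the desaturase that makes monounsaturated fatty acids, had 36407, 21605 and 31130.3 CPM before and 130.1, 309 and 112 CPM at 96. Every library at 96 thus lay far under every library before. It fell by 7.34 ± 1.12 (adjusted p 0.000394), from a mean of 29714 CPM to one of 184 CPM.

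The enzymes ahead of Scd1 fell as well. Acly, which splits citrate into acetyl-CoA, went from 587, 407 and 512 CPM to 127, 125 and 96.8 CPM and fell by 2.11 ± 0.29. Acaca (chr11:84129672-84401651), which makes malonyl-CoA, had 232, 197 and 243 CPM before and 85.5, 99.7 and 95.9 CPM at 96, and fell by 1.26 ± 0.16 (adjusted p 3.56e-05). Fasn (chr11:120805846-120824547), fatty acid synthase, had 5609.9, 4092 and 5446 CPM before and 745, 962 and 1039 CPM at 96, and fell by 2.46 ± 0.33 (adjusted p 8.23e-05). In these 3 genes the spread within each group was small beside the change. Elovl6, which lengthens palmitate, fell by 2.24 ± 0.37, and Acss2, which activates acetate, by 2.73 ± 0.40. Thrsp, a lipogenic cofactor, went from 1362, 1423 and 2299 CPM to 68.7, 144 and 203 CPM and fell by 3.61 ± 0.66.

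Regulators and neighbours of the path followed in part. Srebf1 had 750.2, 668 and 567 CPM before and 146, 241 and 246 CPM at 96, a fall of 1.65 ± 0.31 (adjusted p 0.00216). Pnpla3 (chr15:84167837-84187236), a lipid droplet acylhydrolase that insulin and sugar induce, had 36.2, 66.6 and 88.3 CPM before and 0.429, 4.14 and 0.563 CPM at 96. It fell by 4.97 ± 0.90 (adjusted p 0.00145), and by 6.87 without replicate 2 at 96. The 6.87 rests on 0.429 and 0.563 CPM at 96, both under 3 counts, so its size is uncertain. Both genes were lower in every library at 96. Mlxipl had 318, 446 and 429 CPM before and 132, 284 and 266 CPM at 96, and at -0.80 ± 0.32 it did not pass the test (adjusted p 0.135). The list of lipid droplet and fat storage genes, by contrast, had 0 calls among 25 tested.

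Some genes of glucose handling were lower at 96. Of 28 tested genes of gluconeogenesis, glycolysis and glycogen, 6 fell and 0 rose, with a median of -0.46. Ppp1r3g (chr13:35958839-35970388), a glycogen-targeting subunit of protein phosphatase 1 that is known to respond to feeding, had 44.6, 79.3 and 276 CPM before and 0.859, 0.62 and 1.13 CPM at 96. That was 1756 counts before and 9 counts at 96. It fell by 7.26 ± 0.87 (adjusted p 2.91e-05), and by 6.13 without replicate 3 before. Pklr, the liver pyruvate kinase, had 853, 777 and 853 CPM before and 99.6, 183 and 249 CPM at 96, a fall of 2.22 ± 0.35 (adjusted p 0.000552). Neither overlapped between the groups. G6pc, which releases free glucose, went from 1818, 913 and 1544 CPM to 377, 328 and 600.0 CPM and fell by 1.71 ± 0.50 (adjusted p 0.0352). Its adjusted p was 0.051 with the replicate number as a block, and it was not called without replicate 1 or 3 before or replicate 1 or 2 at 96 (0.0895 to 0.156). The list had 4 fallers without replicate 3 before, 3 without replicate 2 at 96 and 5 or 6 with each of the others left out.

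Some genes of cholesterol synthesis and uptake were lower at 96. Of 25 tested, 6 fell and 0 rose, with a median of -0.55. Tm7sf2, a sterol reductase, had 120.0, 148 and 117 CPM before and 32.2, 63.5 and 45.3 CPM at 96, and fell by 1.44 ± 0.26 (adjusted p 0.0016). All 3 libraries at 96 lay below all 3 before. The count of fallers was 4 without replicate 1 before, 2 without replicate 2 before or replicate 2 at 96, and 1 without replicate 3 before or without replicate 1 or 3 at 96. With total-count scaling 3 fell and 1 rose, and 2 fell without the libraries that held Y-linked transcripts.

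Apolipoproteins and fatty acid oxidation held single large movers. Apoa4 (chr9:46240696-46243459), an apolipoprotein that is known to rise with lipid load and fasting, had 558, 333 and 276 CPM before and 3011, 3258 and 3423 CPM at 96. It rose by 3.05 ± 0.52 (adjusted p 0.000961), and the 3 libraries at 96 lay close together, far above those before. Apoc2 rose by 2.56 ± 0.50 from 0.447 to 1.17 CPM before to 3.44 to 6.19 CPM at 96, and reads of its neighbour in the apolipoprotein cluster could be counted with it. These were the only 2 calls among 38 secreted hepatocyte proteins. Cyp4a31 (chr4:115563649-115579015), a fatty acid hydroxylase of a family that PPAR alpha induces, had 3.05, 1.79 and 2.74 CPM before and 38.2, 50.2 and 39.1 CPM at 96. It rose by 4.07 ± 0.58 (adjusted p 0.000177), and its near copies make the level uncertain. Of 36 tested genes of fatty acid oxidation and ketogenesis, this gene rose and Acaa1b, a peroxisomal thiolase, fell by 1.35 ± 0.39 (adjusted p 0.0345). The call of Acaa1b was lost without replicate 2 or 3 before and without replicate 1 or 2 at 96 (0.0552 to 0.203), with only the groups compared (0.0687) and with total-count scaling (0.0543).

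Hepatocyte transcription factors were called about as often as all genes, and genes of drug and bile acid metabolism less often. Hnf4a, the central hepatocyte transcription factor, had 1210.1, 1291 and 1295 CPM before and 1238, 1114 and 1080.1 CPM at 96, groups that overlapped, with a change of -0.15 ± 0.13 (adjusted p 0.562). Alb changed by -0.04 ± 0.23 (adjusted p 0.944). Of 30 hepatocyte transcription factors, 0 rose and 2 fell, a share close to the 6.85% of all genes tested: Hes6 by 1.12 ± 0.30 (adjusted p 0.0205) and Thrb, a thyroid hormone receptor, by 0.62 ± 0.17 (adjusted p 0.0269). Both calls were lost without any 1 of replicates 2 and 3 before and 1 and 2 at 96 (0.0615 to 0.209), and that of Thrb also with only the groups compared (0.112) and with no filter on low counts (0.0613). Cyp7a1, the rate-limiting enzyme of bile acid synthesis, had 348, 1185 and 756 CPM before and 294, 792 and 469 CPM at 96, and did not pass the test at -0.56 ± 0.92 (adjusted p 0.78). In drug and bile acid metabolism the calls were 1 of 41 cytochrome P450 genes, 1 of 42 phase II genes and 0 of 26 bile acid genes. Each share lay below the 6.85% of all genes tested. Cyp2d22 fell by 0.50 (adjusted p 0.0462, edgeR), a call lost in 11 of 17 alternatives. Gstm2 rose by 1.78 (adjusted p 0.0335, edgeR), a call lost in 7 of 17, and by 0.77 without replicate 1 at 96 (0.454). The mean log2(CPM + 1) of the P450 list was 5.75, 6.98 and 7.20 before and 6.06, 7.0 and 7.07 at 96, lowest at both times in the library that held Y-linked transcripts.

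Amino acid catabolism held 3 fallers and 0 risers among 43 tested, a share close to the 6.85% of all genes tested. Its median was -0.43. Haao, an enzyme of tryptophan breakdown, had 209.9, 231 and 257 CPM before and 111, 113 and 123 CPM at 96. It fell by 1.01 ± 0.23 (adjusted p 0.00841), and was not called without replicate 3 before (0.0604). Sds, serine dehydratase, went from 166, 111 and 172 CPM to 49.4, 27.1 and 54.3 CPM and fell by 1.79 ± 0.45 (adjusted p 0.0148), a call lost without replicate 3 before or replicate 1 or 2 at 96 (0.0507 to 0.108). Both genes were lower in every library at 96. The count was 0 without replicate 3 before, 1 without replicate 1 or 2 at 96 and 7 without replicate 3 at 96, and 0 without the libraries that held Y-linked transcripts. Uox, urate oxidase, outside these lists, had 2677, 2070.2 and 2534 CPM before and 664, 881 and 1208 CPM at 96. It fell by 1.40 ± 0.40 (adjusted p 0.0318), and was called only with all 6 libraries or without replicate 3 at 96 (otherwise 0.0572 to 0.164).

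Acute phase proteins, which the liver secretes in inflammation, had 5 risers and 1 faller of 30 tested and a median of 0.51. Lcn2 (chr2:32384633-32388252), which binds bacterial siderophores, had 35.7, 16.8 and 5.48 CPM before and 566, 80.9 and 289 CPM at 96. It rose by 4.01 ± 0.76 (adjusted p 0.00229), by 3.26 without replicate 1 at 96 and by 4.83 without replicate 1 before. Orm2, an orosomucoid with close copies, went from 47.4, 43.6 and 32.4 CPM to 292, 67.4 and 409 CPM and rose by 2.64 ± 0.59 (adjusted p 0.00637; 0.0548 without replicate 3 before). In both, replicate 2 was the lowest at 96, yet above all libraries before. Hamp2, a hepcidin copy, had 1.17, 76.4 and 96.7 CPM before and 0.429, 1.24 and 0 CPM at 96, where 3 counts in the last would be 0.844 CPM. Its groups overlapped through replicate 1 before. It fell by 6.44 ± 1.53 (adjusted p 0.0101), by 8.17 without replicate 2 at 96 (0.0509), and was not called without replicate 3 before or replicate 1 at 96 (0.0551 and 0.053). The 8.17 rests on 0.429 and 0 CPM at 96, both under 3 counts, so its size is uncertain. The risers numbered 9, 2, 1, 2, 7 and 3 without replicates 1, 2 and 3 before and 1, 2 and 3 at 96, and 9 without the libraries that held Y-linked transcripts.

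Growth and fetal liver genes had 2 risers and 1 faller among 24 tested, and 1 to 4 risers with 1 library left out. Ly6d (chr15:74762056-74763620), a surface protein of the Ly6 family, had 5.40, 4.47 and 1.14 CPM before and 170.5, 81.1 and 97.9 CPM at 96. It rose by 4.97 ± 0.81 (adjusted p 0.000694). Tgfa, a ligand of the EGF receptor, rose by 0.99 ± 0.26 from 31.0 to 33.5 CPM before to 52.6 to 86.3 CPM at 96 (adjusted p 0.0193). Its call was lost without replicate 2 or 3 before or replicate 1 at 96 (0.0712 to 0.163). Igfbp3, which carries insulin-like growth factors in blood, went from 54.5, 71.3 and 46.8 CPM to 9.45, 12.2 and 20.3 CPM and fell by 2.02 ± 0.41 (adjusted p 0.00321). None of these 3 overlapped. Afp, the fetal albumin, had 10.8, 15.0 and 18.5 CPM before and 8.16, 18.8 and 27.6 CPM at 96 and did not pass the test.

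Immediate early genes are those that cells switch on within minutes of a stimulus. Of 24 tested, 8 fell, 1 rose and 15 did not pass the test, with a median of -1.29. Zfp36 (chr7:28376784-28380253), which encodes a protein that destabilises cytokine messages, had 193, 218 and 390.1 CPM before and 51.5, 33.7 and 51.5 CPM at 96, a fall of 2.56 ± 0.29 (adjusted p 1.26e-05). Dusp1, a phosphatase of MAP kinases, went from 157, 172 and 235 CPM to 33.5, 14.7 and 29.8 CPM and fell by 2.88 ± 0.52. Fos, a subunit of the AP-1 factor, had 13.6, 32.2 and 127 CPM before and 2.58, 4.55 and 4.50 CPM at 96. No library at 96 reached the lowest before in these 3 genes. Replicate 3 was the highest before in each, and in Fos it stood far above the other 2. Fos fell by 3.83 ± 0.76 (adjusted p 0.00313), and by 2.49 without replicate 3 before (0.0629). Nr4a1, an orphan nuclear receptor, fell by 3.81 ± 0.66, and by 2.5 without that library, and was not called with only the groups compared (0.0541). Ier5 was the 1 riser, at 1.14 ± 0.30 (adjusted p 0.0202), and was not called without replicate 2 or 3 before or replicate 1 or 2 at 96 (0.0548 to 0.105). The fallers numbered 3 without replicate 3 before and 5 without replicate 2 at 96, and 6 to 8 with each of the others left out. The mean log2(CPM + 1) of the list was 5.10, 5.46 and 6.15 before and 4.55, 4.51 and 4.37 at 96.

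Genes of the circadian clock, a feedback loop in which Arntl and Clock drive their own repressors, also differed. Of 22 tested, 3 rose and 6 fell. Bhlhe40 (chr6:108660629-108666925), a clock repressor, had 593, 678 and 536 CPM before and 106, 152 and 223 CPM at 96, and fell by 1.91 ± 0.30 (adjusted p 0.000434). Arntl (chr7:113207465-113314126) went from 0.939, 1.56 and 1.83 CPM to 12.5, 7.24 and 4.5 CPM and rose by 2.41 ± 0.61 (adjusted p 0.0145), a call lost without replicate 2 or 3 before or replicate 1 at 96 (0.0554 to 0.0913). Neither overlapped. Rgs16, a regulator of G protein signalling with a daily rhythm, had 616, 772 and 942 CPM before and 1.72, 22.1 and 71.4 CPM at 96. It fell by 4.59 ± 1.08 (adjusted p 0.00926), by 5.90 without replicate 3 at 96, and was not called without replicate 1 or 2 at 96 (0.0589 and 0.0654). The libraries at 96 differed widely in it, all far below those before. Per1 and Dbp, 2 further rhythmic genes, did not pass the test at -1.10 ± 0.45 and -1.46 ± 0.62. The fallers numbered 8, 2, 2, 1, 1 and 9 and the risers 2, 0, 0, 0, 1 and 3 without replicates 1, 2 and 3 before and 1, 2 and 3 at 96, and 6 fell and 1 rose without the libraries that held Y-linked transcripts. The labels give no hour of sampling, and its part in these values was not tested.

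Markers of the other liver cells were read for the make-up of the tissue. Of 12 tested genes of MHC class II and dendritic cells, 4 fell and 0 rose, with a median of -0.87 and 3 to 5 fallers with 1 library left out. H2-Aa (chr17:34282744-34287823), a class II chain, had 41.1, 71.0 and 43.3 CPM before and 3.86, 13.4 and 14.3 CPM at 96, and fell by 2.24 ± 0.43 (adjusted p 0.00246). H2-Eb1, another chain, went from 25.1, 46.9 and 26.9 CPM to 7.30, 8.89 and 8.16 CPM and fell by 2.01 ± 0.38. Both lay lower in all libraries at 96. The summed level of the 18 genes of this list in the table was 234 to 357 CPM before and 67.8 to 119.7 CPM at 96.

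The other marker lists held 0 to 2 calls each, against a share of 6.85% over all genes tested. Of 29 Kupffer cell and monocyte genes, 0 rose and 1 fell: Lyz2, a lysozyme, went from 120.4, 102 and 114 CPM to 43.4, 46.7 and 36.8 CPM. It fell by 1.40 ± 0.37 (adjusted p 0.0213), and was not called without replicate 3 before or any 1 library at 96 (0.0634 to 0.0806). Clec4f, which marks resident Kupffer cells, had 234, 244 and 163 CPM before and 149, 139.6 and 215 CPM at 96, which overlapped. The endothelial list held 2 fallers of 29 (1 to 4 with 1 library left out), among them Oit3 at -0.98 ± 0.21, from 36.6 to 45.4 CPM before to 16.7 to 22.8 CPM at 96. Its other faller, Robo4 at -0.79 ± 0.21 (adjusted p 0.0185), was not called without replicate 3 before (0.156) or replicate 1 at 96, with only the groups compared (0.108) or with thinned counts (0.196). Of 12 genes of T, NK and B cells, Cd79b alone fell, by 1.86 ± 0.56 (adjusted p 0.042), and it was not called with the replicate block (0.055), with only the groups compared (0.0975), with total-count scaling (0.0571), with no filter on low counts (0.0663) or with any 1 of the 6 libraries left out (0.0542 to 0.191). Lcn2 was the only call in the neutrophil list, where 2 of 7 tested members had a positive change and the median was -0.98. The summed level of that list was 17.6 to 80.8 CPM before and 91.8 to 579.7 CPM at 96, most of it at 96 from Lcn2, which is also the acute phase gene described above. The neutrophil genes S100a8 and S100a9, at 0.684 to 7.28 and 0.456 to 6.10 CPM before, were at 0.562 to 2.58 and 1.72 to 2.25 CPM at 96.

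Of 32 tested genes of matrix and stellate cells, 1 rose and 1 fell, a share close to the 6.85% of all genes tested. Col4a1, a basement membrane collagen, rose by 1.34 ± 0.34 (adjusted p 0.0168) from 38.5, 32.8 and 26.7 CPM to 118, 76.7 and 54.3 CPM. Its call was lost without replicate 2 or 3 before or replicate 1 at 96 (0.062 to 0.14). Ecm1, a secreted glycoprotein of stellate cells, had 98.1, 156 and 139.9 CPM before and 49.0, 67.2 and 86.9 CPM at 96, and fell by 0.95 ± 0.19 (adjusted p 0.00324), a call lost with only the groups compared (0.0749). Neither overlapped between the groups. There were 0 calls among 10 bile duct, 7 erythroid and 40 interferon response genes and among 5 genes of mesothelium, fat and pancreas. The summed level of the matrix list was 2514 to 2810 CPM before and 2603 to 3081 CPM at 96, and that of the bile duct list 632 to 1001 CPM and 619.7 to 988 CPM. Ctrb1, a pancreas gene, had 0 counts in all 6 libraries.

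Several genes of the naming rule belonged to no list. D17H6S56E-5, a transcript with no coordinates in the annotation, had 25.4, 28.6 and 16 CPM before and 707, 624 and 166 CPM at 96, and rose by 4.42 ± 0.79 (adjusted p 0.00145). Iqgap3, a scaffold protein of cell division, rose by 4.16 ± 0.89, and by 4.92 without replicate 1 before. Hcn3, a cation channel, went from 148, 117 and 85.6 CPM to 5.58, 12.4 and 18.6 CPM and fell by 3.22 ± 0.49 (adjusted p 0.000394). Prkag3, a subunit of AMP-activated kinase, fell by 3.30 ± 0.67 (adjusted p 0.00349), and by 2.39 without replicate 3 before (0.0601). Mlec, a lectin of the endoplasmic reticulum, rose by 1.04 ± 0.24 from 254 to 296 CPM to 439.6 to 762 CPM, a call lost without replicate 3 before (0.0602) or replicate 1 at 96 (0.0912). Rgs1 fell by 3.11 ± 0.54, and by 3.72 without replicate 3 at 96, from 23.3 to 49.1 CPM before to 1.86 to 6.75 CPM at 96. Among stress genes, Hsp90aa1, an inducible chaperone, rose by 1.44 ± 0.29 from 112 to 141 CPM to 217 to 478 CPM, and Herpud1, a protein of the endoplasmic reticulum stress response, fell by 1.29 ± 0.24 from 352 to 551 CPM to 159.6 to 186 CPM. They were the only calls of 26 tested genes of the unfolded protein and heat shock list, which had 7 risers without replicate 1 before and 4 without the libraries that held Y-linked transcripts. Of 25 nucleolar genes of ribosome biogenesis, 0 were called, although 20 had a positive change.

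The place of 96 in the old time course was tested against both neighbours. Against 72, edgeR's quasi-likelihood test called 0 of 13436 genes (0%), with 420 at an unadjusted p under 0.05 and 0 calls by DESeq2. Between 96 and 120 it also called 0 (0%), with 469 at an unadjusted p under 0.05 and 1 call by DESeq2. A p that misses the threshold does not show that the levels were equal, since 3 libraries a group leave wide intervals. The mean of Mki67 was 56.9 CPM before and 243 CPM at 48, then 1014 CPM at 72, 800.4 CPM at 96 and 499.8 CPM at 120, and 115 CPM at 240. Rrm1 averaged 33.0 CPM at 72, 38.2 at 96 and 19.2 at 120. Both were thus near their highest group mean at 72 or 96. The mean log2(CPM + 1) of the mitosis list was 4.91 ± 0.54 at 72, 4.3 ± 1.02 at 96 and 3.85 ± 0.34 at 120 (SD, n = 3), and replicate 3 at 96, at 3.12, lay below all libraries at 72 and 120. Scd1 went from a mean of 29714 CPM before to 2082 CPM at 48, 570.4 CPM at 72 and 184 CPM at 96, its lowest, and then to 1489 CPM at 120 and 16277 CPM at 240. Fasn had its lowest mean, 493 CPM, already at 48, and stood at 915 CPM at 96 and 3018 CPM at 240. Apoa4 was highest at 48 with 7614 CPM and was back to 411 CPM at 240, close to its 389 CPM before. Zfp36 stayed low, with 45.6 CPM at 96 and 71.7 CPM at 240 against 267 CPM before.

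**Figure D4:**
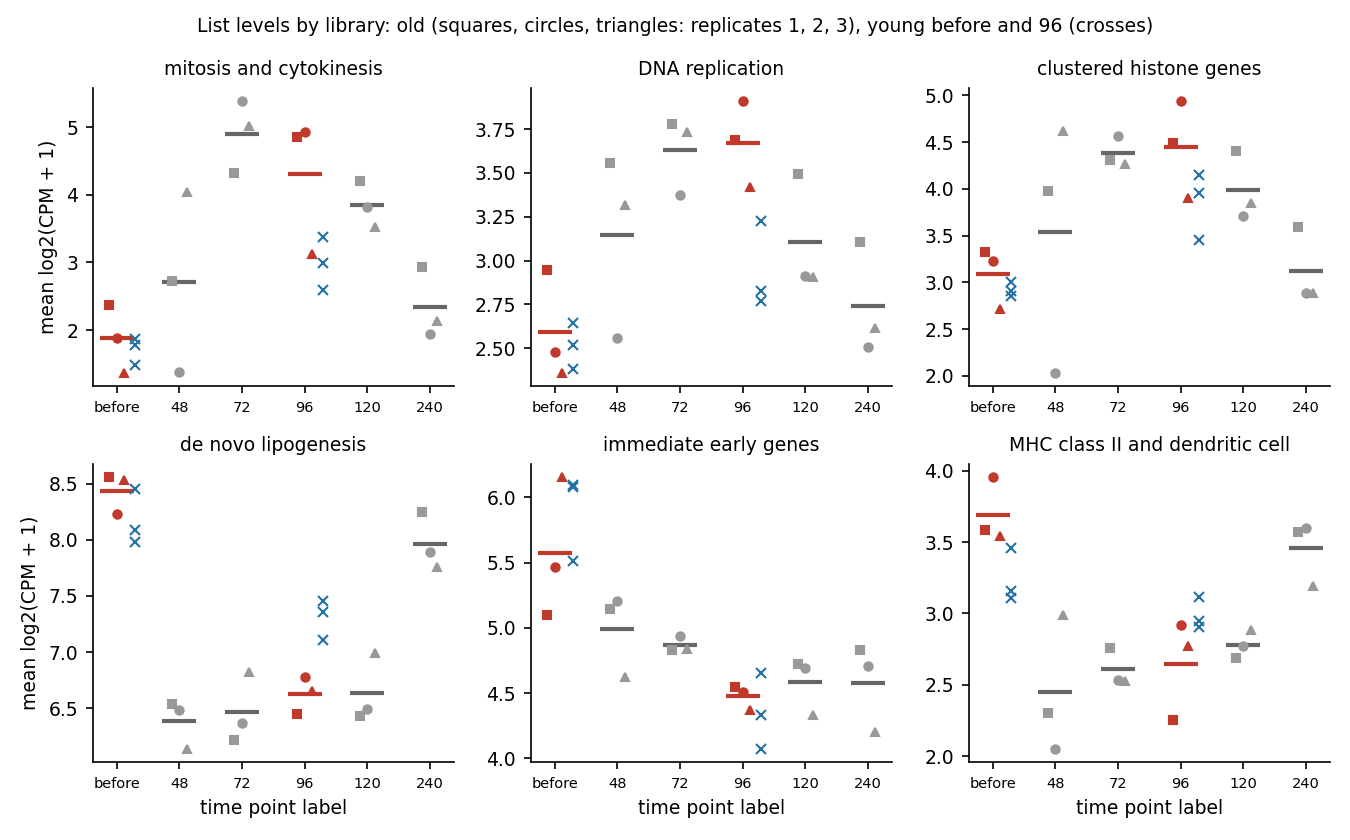
Each panel plots the mean log2(CPM + 1) over the tested members of 1 list in each old library (squares, circles and triangles for replicates 1, 2 and 3, bars for group means) by time label, with before and 96 in red and young libraries before and at 96 as blue crosses. The mitosis level is 1.37 to 2.38 before and 3.12 to 4.92 at 96, and the lipogenesis level 8.22 to 8.56 before and 6.45 to 6.77 at 96.

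The same step was read in mice of 4 months to see which changes the old animals shared. Young mice had 193 calls at 96 against before (1.44%), 92 higher (0.685%) and 101 lower (0.752%), with 2072 genes at an unadjusted p under 0.05. Of the 506 genes that rose in old mice, 449 had a positive change in young mice (88.7%) and 24 were called there, with a median change of 1.46 in old and 0.62 in young. Of the 414 that fell, 375 had a negative change in young mice (90.6%) and 58 were called, with medians of -1.02 and -0.39. The old values of these sets are raised by the choice of called genes. The share with the same sign in both ages was not computed over all genes tested, so the 88.7% and 90.6% have no background beside them. The test of the difference itself, old change minus young change, called 2 genes (0.0149%), both higher, with 1268 at an unadjusted p under 0.05 and 10 calls by DESeq2. For nearly all genes a difference between the ages was therefore not shown.

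Side by side, the mitosis list had a median of 3.18 in old and 1.93 in young mice, where 0 of the 57 were called. Mki67 had 31.4, 45.0 and 46.5 CPM in young libraries before and 167, 376 and 266 CPM at 96, a change of 2.72 ± 0.76 against 3.81 ± 0.80 in old, and the difference was 1.09 ± 1.02 (adjusted p 0.801). The mean of Mki67 at 96 was 800.4 CPM for the old libraries and 269.9 CPM for the young, a difference that was not tested, and the groups overlapped through old replicate 3. The highest young mean, 2288 CPM, was at 48. Scd1 had 23609, 12971 and 15251 CPM in young libraries before and 4988, 7423 and 3983 CPM at 96. Its change was -1.66 ± 0.87 in young against -7.34 ± 1.12 in old, and the difference, -5.67 ± 1.28, did not pass the test (adjusted p 0.263). No young library at 96 came near the old ones at 112 to 309 CPM. The lipogenesis list had 3 fallers in young mice and a median of -0.76, against -1.68 in old. Dynll1, a dynein light chain, rose by 2.23 ± 0.27 in old mice, from 15.5, 13.4 and 11.9 CPM to 93.6, 54.6 and 45.0 CPM. In young mice it changed by 0.64 ± 0.27, and the difference of 1.59 ± 0.38 did not pass (adjusted p 0.263).

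Immediate early and matrix genes had the larger medians in young mice. Immediate early genes had 12 fallers in young mice and 8 in old, with medians of -1.90 and -1.29, and Zfp36 changed by -2.09 ± 0.28 and -2.56 ± 0.29. Matrix genes had 13 risers in young mice and 1 in old, with medians of 1.38 and 0.50. Col1a1, the main fibrillar collagen, had 11.9, 9.2 and 10.7 CPM in young libraries before and 119, 234 and 22.1 CPM at 96. In old libraries it had 7.28, 9.38 and 5.02 CPM before and 24.0, 28.9 and 6.19 CPM at 96, where it overlapped. Its change was 3.56 ± 0.67 in young and 1.45 ± 0.69 in old, and the difference, -2.11 ± 0.94, had an adjusted p of 0.498. Lyz2 fell in old mice (-1.40 ± 0.37) and did not pass the test in young mice (0.83 ± 0.37), with a difference of -2.23 ± 0.52 (adjusted p 0.263). The medians of the Kupffer cell list were -0.44 in old and 0.61 in young mice.

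**Figure D5:**
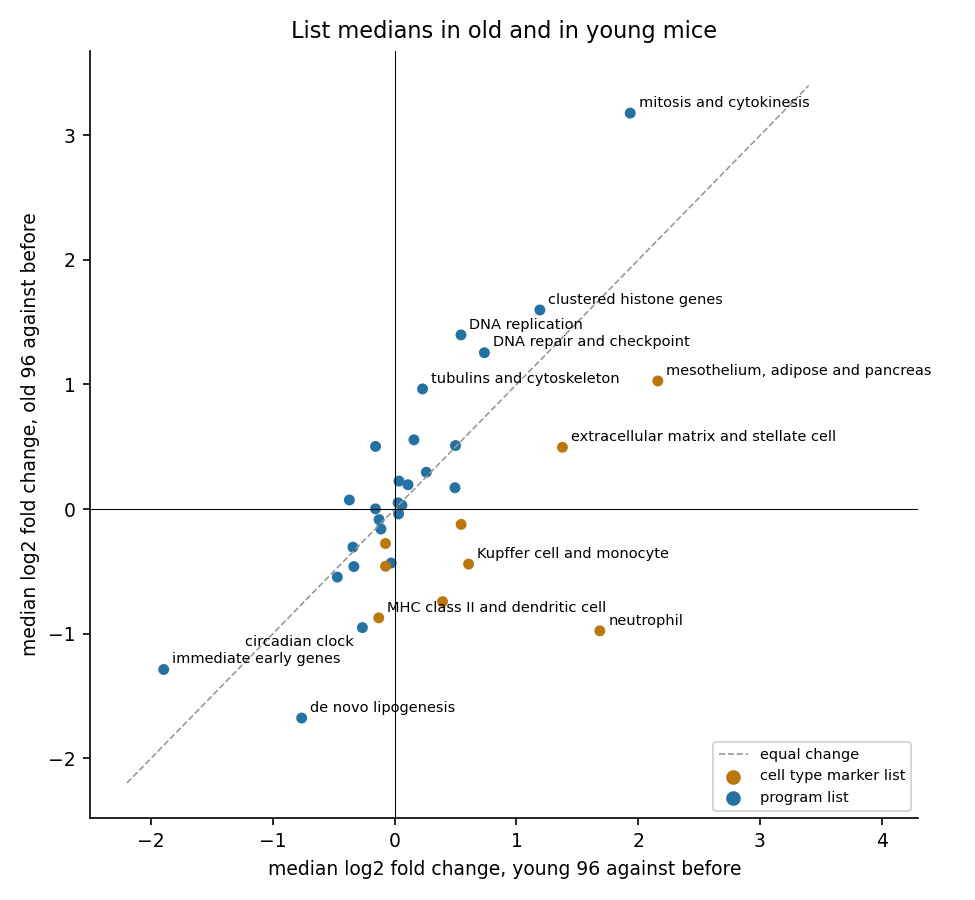
Each point is 1 gene list at its median log2 fold change at 96 against before in young mice (horizontal) and old mice (vertical), with the dashed line at equal change. Program lists are blue and cell type lists brown. The mitosis list lies above the line at 1.93 and 3.18, de novo lipogenesis below it at -0.76 and -1.68, and matrix genes below it at 1.38 and 0.50.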

How the data were processed

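Gene counts of 36 liver RNA-seq libraries, as deposited by the authors, were used: raw counts per gene, 1 table a library, not normalized. Per the submitters' processing notes, bcl2fastq 2.20.0, Trimmomatic 0.39, STAR 2.7.5b and featureCounts were among the tools, with builds GRCm38 and mm10. Strand setting and annotation are not given in the sources used here, so overlapping and antisense genes cannot be told apart. No spike-in row was in the tables (0 ERCC rows).

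Counts were filtered with filterByExpr over 12 groups (13436 of 21955 genes kept), scaled by TMM and fitted with edgeR 4.0.16 (glmQLFit, glmQLFTest) over all 36 libraries with 1 mean a group, so that all groups share the estimate of spread. P-values were adjusted by Benjamini-Hochberg over all genes. SE is the log2 fold change divided by the root of F. List levels are means of log2(CPM + 1). The floors (3 counts) cover counting error only, while the SE, from the quasi-likelihood fit, also takes in the spread between libraries. Depth of 2328233 to 4709507 counts limits low genes. The biological coefficient of variation was 25.1% before and 23.0% at 96.

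Genes were named by rule: 12 rising and 12 falling with the largest change among called genes with at least 10 counts in the lower group, a mean of at least 5 CPM in the higher group and no overlap; 5 and 5 called, at least 2-fold and without overlap, with the highest mean; per list up to 2 called members in each direction with the smallest p, or else the smallest p; and Mki67, Top2a, Ccnb1, Cdk1, Mcm2, Ccnd1, Foxm1, Cdkn1a, Ezh2, Alb, Afp, Cyp7a1 and Hnf4a. Each other comparison gave 4 genes a direction, by smallest p. Predicted genes, pseudogenes, 27 symbols turned into dates, Xist and Y-linked genes were left out. Pcna, Mlxipl, Dbp, Per1, Plk3, Clec4f, S100a8, S100a9, Col1a1 and Ctrb1 were added as defining members of their lists after their values were seen. Some genes that the rule names are not reported here. Members, lists and rules were chosen with earlier results of these data known.

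Replicates with the same number before and at 96 deviated together (correlations 0.459, 0.214 and 0.324), so a fit with the replicate number as a block was compared. Replicate 2 before correlated best with number 3 at 96, replicate 1 was the library with Y-linked transcripts at both times, and in young mice the correlations were -0.142, -0.378 and 0.239, so the numbers are a hint at pairing only. In old mice at 72 and 120 the library with Y-linked transcripts was number 3, and in young mice it was number 1 before and number 2 at 96. A number thus does not mark 1 animal through the series, and the block over all 36 libraries joined different animals. Alternatives were DESeq2 1.42.0, RLE and total-count scaling, other filters, only the groups compared, a Y-linked term, thinned counts and each library left out. On simulated counts with 200 changed genes among 13201, the test for 96 against before recovered 86% of 4-fold and 34% of 2-fold changes, with 3.23% false among 124 calls. Each simulated gene had the spread of the trend at its level, and the changed genes had means over 1 CPM. No simulated library stood apart through Y-linked transcripts or extra detected genes, so these rates need not hold for the real libraries.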

Additional observations from a re-analysis of the deposited data

Results flagged for a closer look

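The difference between the ages, tested as old change minus young change, passed for 2 genes. Ablim3 (chr18:61799392-61911824), an actin-binding LIM protein, had 18.5, 21.7 and 22.6 CPM in old libraries before and 50.2, 42.6 and 37.7 CPM at 96, and 38.9, 56.2 and 53.5 CPM in young libraries before and 29.5, 28.1 and 26.0 CPM at 96. It changed by 1.05 ± 0.20 in old and by -0.83 ± 0.20 in young mice, a difference of 1.87 ± 0.29 (adjusted p 0.0051, edgeR). All old libraries at 96 lay above, and all young libraries at 96 below, those before. The adjusted p was 0.0712 without the libraries that held Y-linked transcripts and 0.073 with thinned counts.

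Slc16a1 (chr3:104638668-104658462), the lactate transporter MCT1, had 109, 81.3 and 50.9 CPM in old libraries before and 314, 239 and 149 CPM at 96, and 80.7, 113 and 140.2 CPM in young libraries before and 93.5, 74.7 and 66.1 CPM at 96. It changed by 1.54 ± 0.25 in old and by -0.51 ± 0.25 in young mice, a difference of 2.05 ± 0.36 (adjusted p 0.0227, edgeR). The young groups overlapped and the old ones did not. The call was lost without old replicate 2 before (0.0957), old replicate 3 before (0.121), old replicate 1 at 96 (0.179), young replicate 2 (0.0746) or 3 (0.158) before, and young replicate 2 (0.123) or 3 (0.0882) at 96. It was also lost with total-count scaling (0.0579) and with only the groups compared (0.123).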

How the results depend on the processing

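The 920 calls at 96 against before became 458 with only the groups compared in the fit and 573 without the libraries that held Y-linked transcripts, and ranged from 236 to 1110 with 1 library left out. The other settings gave 700 (no filter) to 1217 (only the 6 libraries with the replicate block, added after the data were seen). The count was 1054 with the replicate block, which ended the calls of G6pc and Cd79b and of no other named gene (with only the 6 libraries and the block, those of Actg1, Cyp2d22, Gstm2 and Cd79b were lost), and 1084 with DESeq2. The 2 calls of the difference between ages became 1 with total-count scaling, 5 with a Y-linked term, 5 without those libraries and 10 with DESeq2, and 1 to 3 with 1 library left out. For 120 against 96 the count of 0 became 1 with the replicate block and 1 with DESeq2, and 0 to 2 with 1 library left out. For 96 against 72 it was 0 in all settings run. Of 93 named genes called, 45 were called under each alternative and 48 were lost under at least 1, with 0 reversed. The cause of these shifts was not tested, except that leaving out libraries lowers the number of samples. Genes under about 1 CPM rest on few counts, since 3 counts were 0.62 to 1.29 CPM in the 6 libraries.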
